A study of Canis lupus familiaris with 6 samples.

Results

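The enzymes of glycolysis and the pentose phosphate pathway were examined in whole blood of Beagle dogs fed without or with CPP-Se, in which selenium is chelated by casein phosphopeptide. The members were chosen by gene symbol. Of 36 symbols on the list, 29 named a row among the 31512 genes of the FPKM table, and PGAM1, LDHA, RPIA, ALDOA, TALDO1, RPE and PKM named none. Both groups had the same maintenance food. The control group was given 30 g of a plain snack, and the CPP-Se group 30 g of a snack holding 0.03% CPP-Se. The dogs were 1.5 years old. The libraries came from blood of day 30, with 3 dogs of each group out of the 12 dogs in the feeding trial and 1 library per dog. Whole blood holds red cells with their residual RNA, platelets and every class of leukocyte, so a lower level in bulk RNA can come from fewer cells of a type or from less RNA per cell, and these cannot be told apart here.

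Glycolysis breaks glucose down to pyruvate in the cytosol and yields ATP and NADH. Lactate dehydrogenase turns pyruvate into lactate and restores NAD. The pentose phosphate pathway leaves glycolysis at its first sugar phosphate, makes NADPH in its oxidative branch and returns sugar phosphates through its non-oxidative branch. Mature red cells have no mitochondria and live on glycolysis, and neutrophils depend on it heavily. NADPH keeps glutathione reduced in red cells and feeds the oxidase that neutrophils use against microbes.

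Expression was given as FPKM, a fragment count corrected for the length of the gene and the size of the library, so levels of different genes are compared here per length. The reads on genes numbered 6598173 to 8067034 per dog. CPP-Se replicate 2 stood apart from the other libraries. The library size behind its FPKM was 1.65 times the reads it had on genes (other dogs 0.882 to 1.05), and 8 hemoglobin genes held 36.6% of its reads against 48.7% to 55.9%. Differences were tested by limma on log2(FPKM + 1) in the 9847 genes whose mean FPKM was at least 1, two-sided, with Benjamini-Hochberg adjustment over all of them. The pseudocount of 1 makes log2 fold changes of low genes smaller than those of their FPKM. A gene was called where its adjusted p was under 0.05 and its fold change at least 1.5.

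Of the 29 members, 24 passed the filter and were tested, and none was called, although 6 of the 24 (25%) had an unadjusted p under 0.05. Among all genes tested, 0.0305% were called (3 genes) and 16% had an unadjusted p under 0.05. The lowest adjusted p of a member was 0.138 (limma), that of PFKFB2. On reads recovered from the FPKM, limma-voom called 0 members, and with sample quality weights, a setting chosen after seeing the data, it called 1, PFKFB2 (adjusted p = 0.0407), among 1.58% of all genes (156 of 9847). In 7 members (29.2%) all 3 CPP-Se dogs lay below all 3 control dogs, namely PFKFB2, H6PD, PGM2, PGD, PGK1, GAPDH and TKT. In 2 members (8.33%), LDHB and PFKL, all CPP-Se dogs lay above the control dogs. The same arrangement without overlap occurred in 12.6% of all genes tested on the lower side and in 10.4% on the higher side. The median log2 fold change was -0.13 over the 24 members and -0.0043 over all genes tested, and 14 of the 24 values were below 0. The log2 fold changes farthest from 0 were those of PFKFB2 (-1.34), H6PD (-0.87), PGM2 (-0.61), PGD (-0.56) and LDHB (0.55).

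The counts depended on the scaling between libraries. The factors of the median of ratios were nearly equal in all dogs, and the lowest was 0.995, in CPP-Se replicate 2. The deposited FPKM were thus already nearly level by that measure, and with it 7 members were lower and 4 higher without overlap. A common sum instead raises CPP-Se replicate 2 relative to the other dogs, since its FPKM summed to 303449 against 458774 to 540009. When the FPKM of each dog were set to a common sum, the median of all genes moved to 0.13 and that of the members to 0.020, so the members lay 0.11 below the median of all genes on the log2 scale, against 0.13 with the deposited FPKM. Over all 20 settings this distance ran from -0.25 without CPP-Se replicate 1 to -0.025 under quantile normalization, and it was -0.046 without CPP-Se replicate 2 and -0.051 without CPP-Se replicate 3. Under the common sum, 1 member (4.17%) had an unadjusted p under 0.05, against 9.32% of all genes. PFKFB2 was then the only member lower without overlap and ENO2 the only one higher without overlap. Among all genes the split without overlap was 1025 higher and 1244 lower in the deposited FPKM and 1056 higher and 311 lower under the common sum. The log2 fold changes of HK2 (-0.02), GPI, TPI1, PFKP and GAPDH changed sign under at least 1 scaling, and those of the 6 members with an unadjusted p under 0.05 did not. When CPP-Se replicate 2 was left out, 5 members (20.8%, against 15.7% of all genes) had an unadjusted p under 0.05, 8 were lower and 3 higher without overlap, and among all genes tested 18.0% were then lower and 16.1% higher without overlap.

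**Figure D1:**
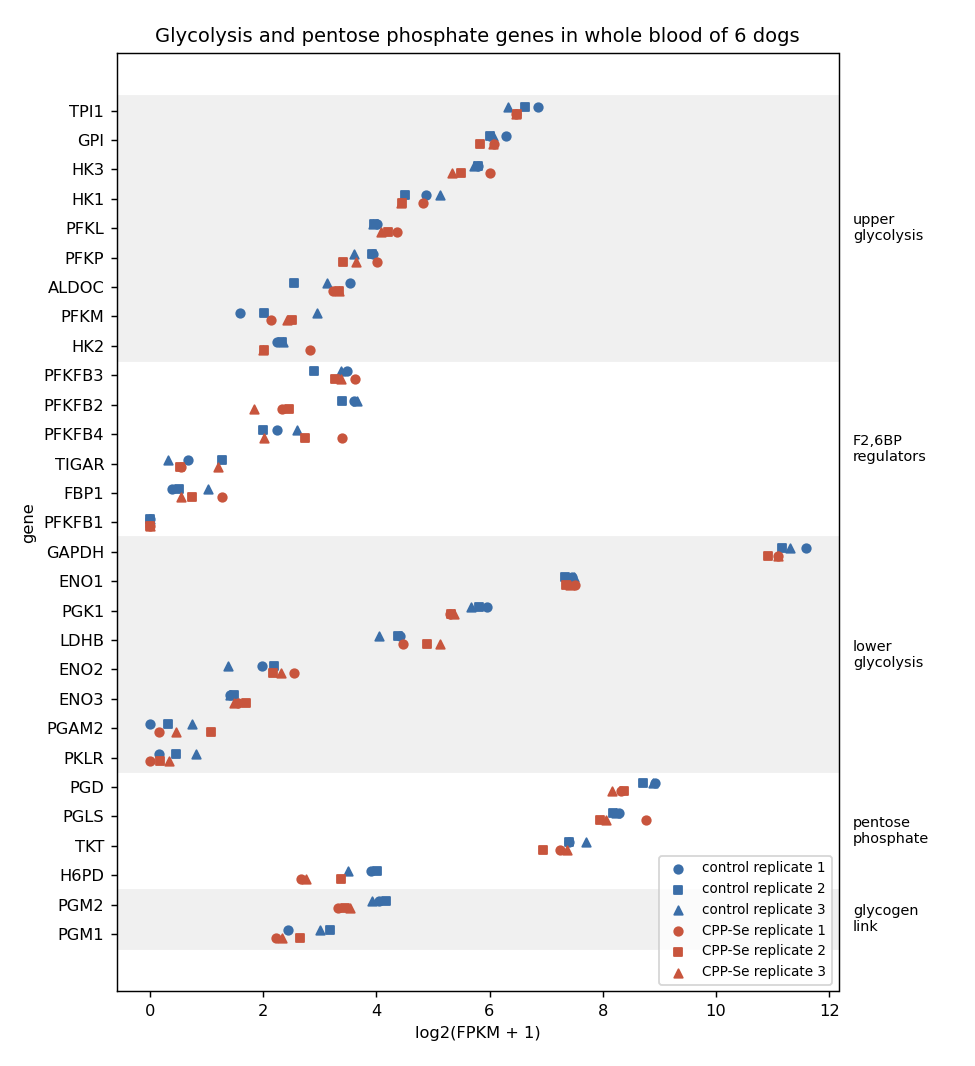
Expression of the 29 members in each dog, as log2(FPKM + 1) on the x axis, with 1 row per gene grouped by role and 1 point per dog. GAPDH lies far above the other genes, and the blue control points of PFKFB2 stand clear of the red CPP-Se points.

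The members spanned a wide range of levels. GAPDH, the dehydrogenase that makes NADH in lower glycolysis, was the highest and ranked 16 among all genes by mean FPKM. PGD, PGLS, ENO1 and TKT followed, and these 5 members had means of at least 100 FPKM. In all, 14 members had means of at least 10 FPKM. PGD, PGLS and TKT belong to the pentose phosphate pathway. The summed FPKM of all members was 4677, 3759 and 4097 in the control group (replicates 1, 2 and 3) against 3683, 3160 and 3453 in the CPP-Se group. The sums of the groups did not overlap in the deposited FPKM, and most of each sum was GAPDH. They overlapped at a common sum per dog, with 9832, 7268 and 8931 TPM (FPKM rescaled to the same sum in every dog) in the control group against 7395, 10413 and 6394 in the CPP-Se group. Without GAPDH the sums were 1606, 1455 and 1561 in the control group against 1494, 1236 and 1259 in the CPP-Se group, and the groups overlapped.

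Glucose entry and upper glycolysis held 9 measured genes, the hexokinases, glucose phosphate isomerase, the phosphofructokinases, an aldolase and triose phosphate isomerase. None of the 9 had an unadjusted p under 0.05, 6 values were below 0 and 3 above, and the median log2 fold change was -0.13. HK3, a hexokinase of leukocytes, was the highest of the 3 hexokinases, which trap glucose in the cell as its phosphate. Its FPKM were 54.9, 54.6 and 51.6 in the control group (replicates 1, 2 and 3) against 63.5, 44.0 and 39.2 in the CPP-Se group. The CPP-Se dogs thus lay on both sides of a narrow control group (log2 fold change -0.16). HK1, the hexokinase that red cells rely on, had means of 27.9 ± 6.0 (SD, n = 3) FPKM in the control group and 22.9 ± 3.86 in the CPP-Se group, which overlapped. HK2, an inducible hexokinase, had 3.95 ± 0.201 and 4.06 ± 1.78 FPKM, with its highest value, 6.12 FPKM, in CPP-Se replicate 1.

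GPI, which converts glucose phosphate to fructose phosphate, had FPKM of 77.7, 63.6 and 66.1 in the control group against 66.8, 56.0 and 65.7 in the CPP-Se group. TPI1, which interconverts both triose phosphates, had 115, 98.4 and 79.5 FPKM in the control group against 87.5, 89.0 and 87.4 in the CPP-Se group. The 3 CPP-Se dogs were almost equal and lay inside the control range for TPI1, and the groups overlapped for GPI too, with log2 fold changes of -0.13 for both. ALDOC, the aldolase first described in brain, had 10.6, 4.85 and 7.77 FPKM in the control group against 8.43, 9.19 and 9.12 in the CPP-Se group, again with overlap (log2 fold change 0.24). TPI1 overlaps SPSB2 on the opposite strand, whose reads equalled 21.8% of its own.

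The phosphofructokinases catalyse the committed step of glycolysis, and their 3 subunit types combine into tetramers. PFKL, the liver type that also dominates in many leukocytes, had 15.1, 14.6 and 14.3 FPKM in the control group against 19.6, 17.5 and 15.9 in the CPP-Se group. All CPP-Se dogs lay above all control dogs, but the difference was small (log2 fold change 0.25 ± 0.17 SE; adjusted p = 0.509 by limma). PFKP, the platelet type, had group means of 13.2 ± 1.82 and 12.1 ± 2.87 FPKM. PFKM, the muscle type, had 3.95 ± 2.49 and 4.15 ± 0.658 FPKM, and its control values ran from 2.03 to 6.76. The muscle markers CKM, MYH1, MYH2 and MB were at 0 in all 6 libraries.

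Fructose-2,6-bisphosphate is the strongest activator of phosphofructokinase, and the bifunctional PFKFB enzymes make and remove it. PFKFB2 (ENSCAFG00000011550; chromosome 7, bases 6196656 to 6218397 of the plus strand in the dog genome of Ensembl release 100) is the isoform known from heart, where kinases of insulin and adrenaline signaling act on it. Its FPKM were 11.1, 9.57 and 11.6 in the control group (replicates 1, 2 and 3) against 4.02, 4.51 and 2.57 in the CPP-Se group. The CPP-Se dogs were all far below the control dogs, and the gap between the groups was wider than the range within either group. The means were 10.8 ± 1.05 and 3.70 ± 1.01 FPKM, and the log2 fold change was -1.34 ± 0.21 SE, a 2.53-fold difference of FPKM + 1. Its unadjusted p in limma was 0.000279 and its adjusted p 0.138, so it missed the threshold. The reads behind these values numbered 159, 128 and 195 in the control group against 54, 126 and 33 in the CPP-Se group. CPP-Se replicate 2 had nearly as many reads as control replicate 2, and its lower FPKM came with its larger library size. Without CPP-Se replicate 2 the log2 fold change of PFKFB2 was -1.47 (adjusted p = 0.110 by limma). At a common sum per dog, the values in TPM were 23.4, 18.5 and 25.2 in the control group against 8.08, 14.9 and 4.76 in the CPP-Se group, still without overlap.

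The other isoforms overlapped between the groups or were hardly detected. PFKFB3, the inducible isoform with a strong bias toward making fructose-2,6-bisphosphate, had 10.2, 6.46 and 9.36 FPKM in the control group against 11.4, 8.66 and 9.42 in the CPP-Se group. PFKFB4 had 3.77, 3.01 and 5.06 FPKM in the control group against 9.51, 5.71 and 3.03 in the CPP-Se group. Their log2 fold changes were 0.17 ± 0.21 SE and 0.43 ± 0.35 SE. The value of PFKFB4 was 0.09 without CPP-Se replicate 1 and 0.78 without CPP-Se replicate 3. PFKFB1, the liver isoform, was at 0 in all 6 dogs, where a floor of 3 reads corresponds to 0.119 to 0.259 FPKM and covers counting error only. TIGAR, a phosphatase that lowers fructose-2,6-bisphosphate, had 2 to 9 reads per dog, and FBP1, the fructose bisphosphatase of gluconeogenesis, had 3 to 13. TIGAR had 0.588, 1.41 and 0.250 FPKM in the control group against 0.470, 0.451 and 1.31 in the CPP-Se group. FBP1 had 0.307, 0.438 and 1.04 FPKM in the control group against 1.42, 0.681 and 0.456 in the CPP-Se group. Both were below the filter and a difference was not detectable at this depth.

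**Figure D2:**
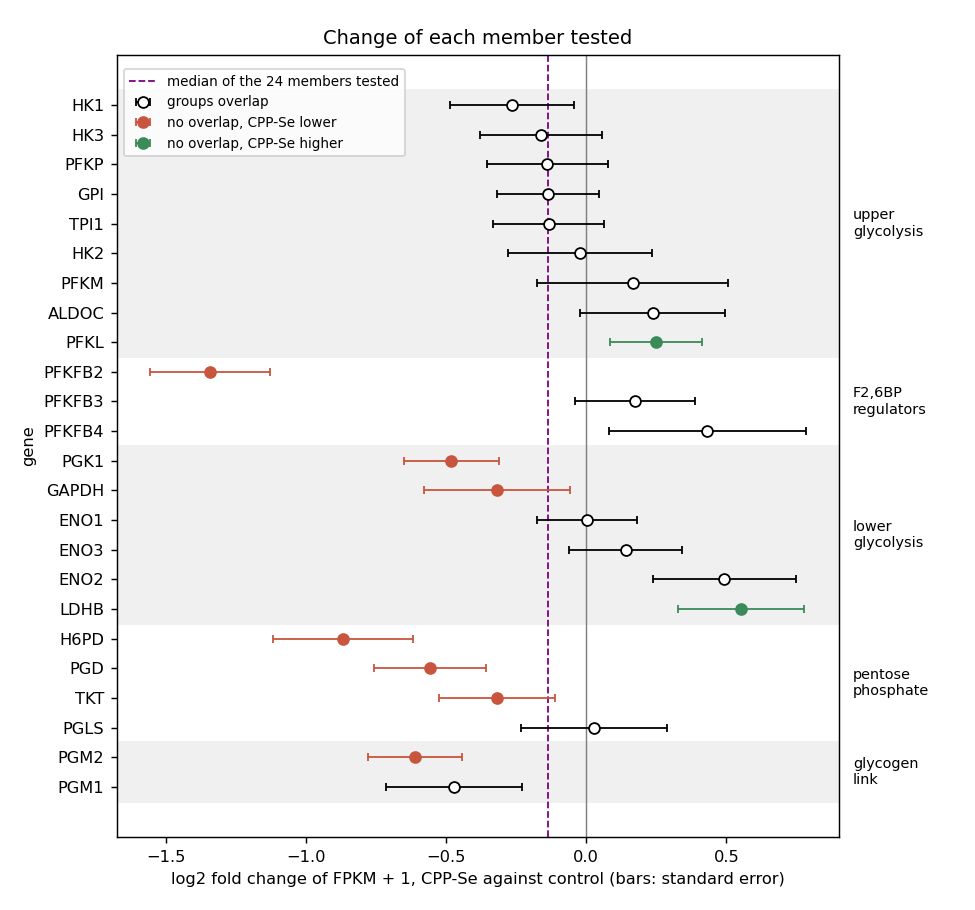
Log2 fold change of FPKM + 1, CPP-Se against control, for the 24 members tested, grouped by role, with bars for the standard error of the fit. Filled points mark the 9 members without overlap between the groups, of which 7 are lower and 2 higher, and the dashed line is the median of the members at -0.13.

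Lower glycolysis and lactate formation held 8 genes in the file, of which 6 were tested. GAPDH had 3070, 2304 and 2536 FPKM in the control group against 2189, 1924 and 2194 in the CPP-Se group. The lowest control dog exceeded the highest CPP-Se dog by little, and the log2 fold change of -0.32 ± 0.26 SE was close to its error (adjusted p = 0.592 by limma). The file held 18 other rows with reads that carry the same protein description as GAPDH, and their reads summed to 23.8% to 29.8% of those of GAPDH, so reads may be split among near-identical copies and the level of GAPDH is uncertain.

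PGK1 (ENSCAFG00000017270; chromosome X, bases 60374754 to 60423947) makes the first ATP of glycolysis. Its FPKM were 61.4, 55.1 and 50.0 in the control group against 38.4, 39.0 and 40.6 in the CPP-Se group. The CPP-Se dogs were close to each other and all below the control dogs, with means of 39.3 ± 1.16 and 55.5 ± 5.71 FPKM. The log2 fold change was -0.48 ± 0.17 SE, with an adjusted p of 0.252 by limma. At a common sum per dog, CPP-Se replicate 2 had 128 TPM for PGK1, inside the control range of 107 to 129. ENO1, the main enolase of blood, was nearly the same in both groups. Its FPKM were 174, 160 and 179 in the control group against 182, 162 and 170 in the CPP-Se group (log2 fold change 0.00 ± 0.18 SE). For ENO1, 3 other rows with its description held reads equal to 39.6% to 58.8% of its own.

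The enolases named for neurons and muscle were low. ENO2 had 2.95, 3.56 and 1.61 FPKM in the control group against 4.85, 3.51 and 3.97 in the CPP-Se group (log2 fold change 0.49 ± 0.25 SE, adjusted p = 0.391 by limma), and the groups overlapped at a single pair of dogs. ENO3 lay between 1.66 and 2.25 FPKM in all dogs. ENO2 and ENO3 overlap other genes that are expressed far more, such as PFN1 within the span of ENO3, and the sources used here do not state how shared reads or strands were counted, so their levels are uncertain. The neuron markers SYT1, NEFL and SNAP25 were at 0 in all 6 libraries.

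LDHB (ENSCAFG00000012195; chromosome 27, bases 25470665 to 25492920) encodes the heart type subunit of lactate dehydrogenase, which is also the main type in red cells and T cells. Its FPKM were 20.5, 19.8 and 15.6 in the control group against 21.2, 28.8 and 34.1 in the CPP-Se group. CPP-Se replicate 1 exceeded the highest control dog by less than 1 FPKM, and the other CPP-Se dogs stood clearly above. The means were 18.6 ± 2.64 and 28.0 ± 6.45 FPKM, with a log2 fold change of 0.55 ± 0.22 SE and an adjusted p of 0.288 by limma. LDHB was thus the only member with an unadjusted p under 0.05 and a higher level in the CPP-Se group. Its read counts were modest, from 138 to 423 per dog, and 7 other rows with its description held 2.67% to 10.9% as many reads.

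PGAM2, the muscle phosphoglycerate mutase, and PKLR, the pyruvate kinase of liver and red cells, were below the filter. PGAM2 had 0, 0.245 and 0.680 FPKM in the control group against 0.122, 1.11 and 0.383 in the CPP-Se group. PKLR had 0.116, 0.371 and 0.752 FPKM in the control group against 0, 0.138 and 0.258 in the CPP-Se group. Both rested on at most 23 reads in a dog and overlapped between the groups. The liver marker F2 was at 0 in all 6 libraries, and the liver list summed to 777 to 832 FPKM in the control dogs and 397 to 523 in the CPP-Se dogs, nearly all of it SERPINA1, which leukocytes also express. PGAM2 also overlaps DBNL, which had a mean of 119 FPKM.

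**Figure D3:**
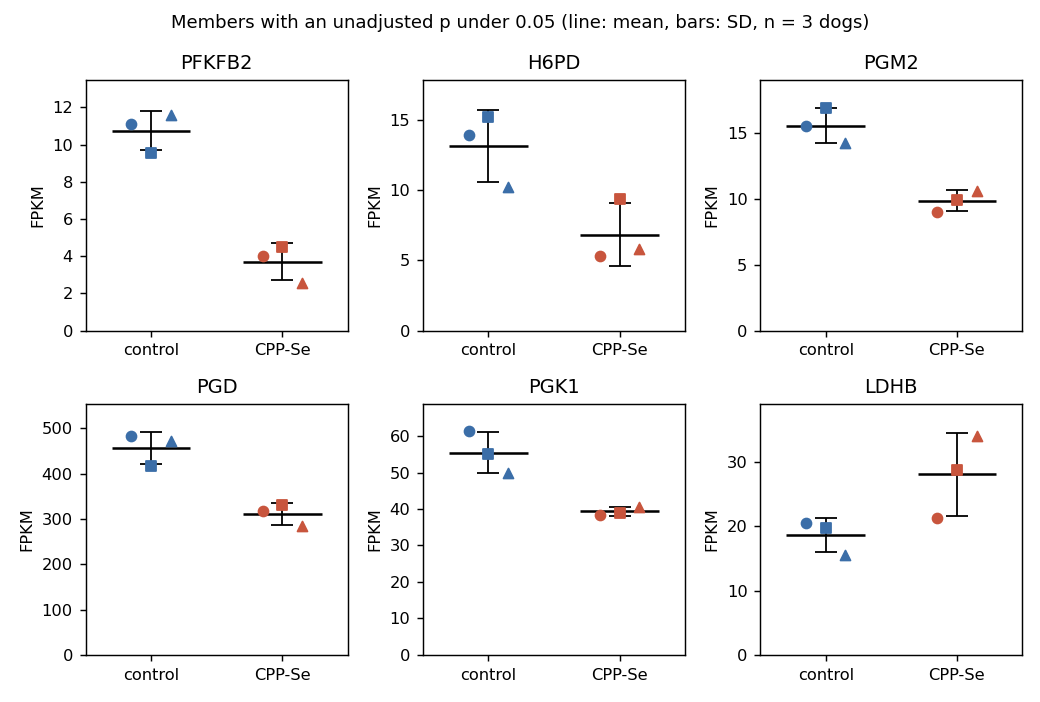
FPKM of the 6 members with an unadjusted p under 0.05 in each dog, with circles, squares and triangles for replicates 1, 2 and 3, a line for the group mean and bars for the SD (n = 3 dogs). PFKFB2, H6PD, PGM2, PGD and PGK1 lie lower in all CPP-Se dogs, and LDHB lies higher, with CPP-Se replicate 1 just above the control dogs.

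The pentose phosphate pathway had a median log2 fold change of -0.44 over 4 tested genes. Of these, 2 had an unadjusted p under 0.05 and 3 were lower without overlap, against 16% and 12.6% of all genes tested. None of these 3, H6PD, PGD and TKT, was lower without overlap at a common sum per dog. H6PD (ENSCAFG00000019727; chromosome 5, bases 62548221 to 62608964) encodes the bifunctional enzyme that runs the first oxidative steps inside the endoplasmic reticulum and supplies NADPH there. Its FPKM were 13.9, 15.2 and 10.3 in the control group against 5.34, 9.40 and 5.80 in the CPP-Se group. CPP-Se replicate 2 came within about 1 FPKM of control replicate 3, and the other CPP-Se dogs were far below. The means were 13.1 ± 2.56 and 6.85 ± 2.22 FPKM, with a log2 fold change of -0.87 ± 0.25 SE and an adjusted p of 0.188 by limma. At a common sum per dog the groups overlapped, since CPP-Se replicate 2 then had the highest H6PD value of all dogs, 31.0 TPM, against 22.4 to 29.4 in the control dogs and 10.7 in each of the other CPP-Se dogs. Without CPP-Se replicate 2 the log2 fold change of H6PD was -1.09 (adjusted p = 0.135 by limma).

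PGD (ENSCAFG00000016797; chromosome 2, bases 85393819 to 85408272) encodes phosphogluconate dehydrogenase, the NADPH-producing enzyme at the end of the oxidative branch. It was the second highest member, with 483, 417 and 473 FPKM in the control group against 317, 331 and 284 in the CPP-Se group. The values were tight within each group and separate between them. The means were 457 ± 35.7 and 311 ± 24.1 FPKM, with a log2 fold change of -0.56 ± 0.20 SE and an adjusted p of 0.253 by limma. PGD had 2733 to 6940 reads in each dog. At a common sum per dog, CPP-Se replicate 2 had 1091 TPM, above all control dogs, whose highest value was 1031.

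PGLS, the lactonase between both dehydrogenase steps, overlapped between the groups. Its FPKM were 312, 289 and 299 in the control group against 436, 247 and 265 in the CPP-Se group. CPP-Se replicate 1 lay well above and the other CPP-Se dogs below a tight control group, so the log2 fold change was 0.03 ± 0.26 SE. TKT, the transketolase of the non-oxidative branch, had 169, 168 and 207 FPKM in the control group against 150, 123 and 164 in the CPP-Se group. TKT was lower without overlap, but by a narrow margin (log2 fold change -0.32 ± 0.21 SE, adjusted p = 0.501 by limma), and it overlaps PRKCD on the opposite strand, whose reads equalled 18.6% of its own.

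The phosphoglucomutases link glycogen and the pentoses to glycolysis. Their median log2 fold change was -0.54 over 2 tested genes. PGM2 (ENSCAFG00000016249; chromosome 3, bases 74344810 to 74382494), which acts mainly on pentose phosphates, had 15.6, 16.9 and 14.2 FPKM in the control group against 9.03, 9.90 and 10.6 in the CPP-Se group. All CPP-Se dogs were well below the control dogs. The means were 15.6 ± 1.35 and 9.85 ± 0.796 FPKM, with a log2 fold change of -0.61 ± 0.17 SE and an adjusted p of 0.183 by limma. At a common sum per dog, CPP-Se replicate 2 had 32.6 TPM for PGM2, inside the control range of 31.0 to 32.7. PGM1, which interconverts glucose phosphates, had 4.44, 8.07 and 7.05 FPKM in the control group against 3.69, 5.29 and 4.06 in the CPP-Se group. Its groups overlapped through control replicate 1 (log2 fold change -0.47 ± 0.24 SE, adjusted p = 0.393 by limma).

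Isoenzyme shares were compared because a ratio within a dog does not depend on the scaling between dogs. The share of each member in the summed FPKM of its family was tested for 13 members of 5 families by a two-sided exact permutation test, in which 3 dogs against 3 cannot give a p under 0.1. The PFKFB family differed most. PFKFB2 made up 44.3%, 50.3% and 44.5% of the family in the control group against 16.2%, 23.9% and 17.1% in the CPP-Se group. All CPP-Se dogs had far smaller shares, with means of 46.4% ± 3.37 and 19.1% ± 4.20 (SD, n = 3; exact permutation p = 0.1, adjusted 0.26). PFKFB3 had 36.9% ± 3.44 in the control group and 51.4% ± 9.79 in the CPP-Se group, and PFKFB4 had 16.8% ± 2.37 and 29.5% ± 9.03, both also without overlap. When shares were taken of reads not divided by gene length, PFKFB4 overlapped (a difference of 8.02 percentage points, exact permutation p = 0.3), and PFKFB2 was still lower without overlap (-18.7 percentage points). These 3 shares sum to the whole family and are not independent of each other. PFKFB2 was therefore the largest isoform in all 3 control dogs and PFKFB3 in all 3 CPP-Se dogs, by their FPKM.

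PFKL had 46.0% ± 1.75 of the phosphofructokinase FPKM in the control group and 52.2% ± 2.52 in the CPP-Se group, without overlap. ENO1 had 97.5% ± 0.717 and 96.6% ± 0.153 of the enolase FPKM, also without overlap, but only just. Its lowest control share was 96.77% and its highest CPP-Se share 96.72%. The levels of ENO2 and ENO3, which set this share, are uncertain because of the genes that overlap them. Each of the 5 shares without overlap had the smallest p of the design, 0.1 by exact permutation test, and an adjusted p of 0.26. The hexokinase shares overlapped, with HK3 at 62.9% in the control group and 64.2% in the CPP-Se group (exact permutation p = 0.8). PGM1 had 29.2% and 30.5% of the phosphoglucomutase FPKM (exact permutation p = 0.8), a difference of 1.31 percentage points that was smaller than the SD of 6.10 among the control dogs.

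**Figure D4:**
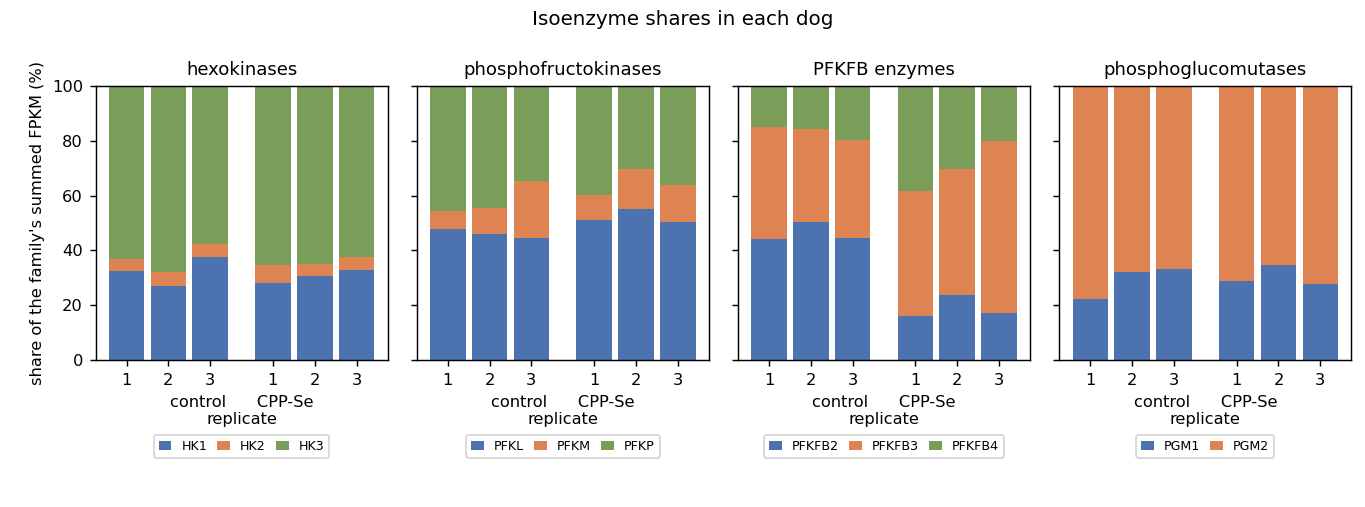
Share of each isoenzyme in the summed FPKM of its family, in percent, in each of the 3 control dogs and 3 CPP-Se dogs. The PFKFB2 part of the PFKFB bars is 44.3% to 50.3% in the control dogs and 16.2% to 23.9% in the CPP-Se dogs, while the hexokinase and phosphoglucomutase shares overlap between the groups.

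The dog with the highest value differed from member to member, and the counts depended on the scaling. In the deposited FPKM, the control dogs had the highest value in 6, 3 and 4 of the 24 members tested and the lowest in 1, 4 and 5. CPP-Se replicate 1 had the highest value in 9 members and the lowest in 4, with PGLS at 436 FPKM and PFKFB4 at 9.51 FPKM among its highest. CPP-Se replicates 2 and 3 each had the highest value in 1 member and the lowest in 5. With FPKM at a common sum, CPP-Se replicate 2 had the highest value in 15 of the 24 members and the lowest in 0, and CPP-Se replicate 3 had the lowest in 13.

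Genes around the pathway were read from 5 further lists, and none of their members was called. Sugar and lactate transport had the lowest median of them, -0.39 over 9 tested genes of 10 listed, of which 3 had an unadjusted p under 0.05, all lower, against 16% of all genes tested. Without overlap, 4 were lower and 1, the lactate transporter gene SLC16A1, was higher, against 12.6% and 10.4% of all genes tested. SLC2A3, the high-affinity glucose transporter of leukocytes, had 44.1, 46.2 and 43.6 FPKM in the control group against 23.4, 34.7 and 29.1 in the CPP-Se group (log2 fold change -0.62 ± 0.19 SE, adjusted p = 0.209 by limma). SLC2A6 and SLC2A8, transporters of internal membranes, had log2 fold changes of -0.71 and -0.90 and no overlap. With FPKM at a common sum, CPP-Se replicate 2 lay above all control dogs for SLC2A3 and SLC2A6, and SLC2A8 was still lower without overlap.

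Glycogen enzymes had a median of -0.03 over 11 tested genes of 15, with 3 lower and 1 higher at an unadjusted p under 0.05, against 16% of all genes tested. GBE1, the branching enzyme, had 7.96, 6.45 and 5.84 FPKM in the control group against 4.01, 3.63 and 3.81 in the CPP-Se group (log2 fold change -0.68 ± 0.18 SE, adjusted p = 0.179 by limma). The CPP-Se dogs were close together and all below the control dogs, also at a common sum. Pyruvate entry to mitochondria had a median of 0.05 over 11 tested genes of 14, and 1 of them, PDK3, a kinase that blocks pyruvate dehydrogenase, was lower at an unadjusted p under 0.05 (log2 fold change -0.60), with overlap at a common sum.

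Side branches of the pathway had a median of 0.08 over 18 tested genes of 24. Of these, PMM1, a phosphomannomutase, had 368, 285 and 284 FPKM in the control group against 167, 90.5 and 284 in the CPP-Se group, where CPP-Se replicate 3 lay just under the lowest control dog, and the groups did not overlap at a common sum either. KHK, which phosphorylates fructose, had 0.808, 0.124 and 1.18 FPKM in the control group against 2.34, 2.42 and 1.29 in the CPP-Se group, on 1 to 41 reads and with overlap at a common sum. The hypoxia regulators that control transcription of glycolytic genes had a median of -0.04 over 7 tested genes of 8, and none of them had an unadjusted p under 0.05.

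Markers of blood cell types also differed between these libraries, although none of the markers on any list was called (lowest adjusted p = 0.138 by limma). Without overlap, 12.6% of all genes tested were lower and 10.4% higher, against which the counts of markers are read. Of 16 neutrophil markers, 11 were tested and 9 had lower values, 6 of them without overlap, with a median log2 fold change of -0.80. Their summed FPKM were 2431 to 3243 in the control dogs and 1812 to 2330 in the CPP-Se dogs. MMP9 and CD177 had higher log2 values. MMP9 was at 729 and 540 FPKM in CPP-Se replicates 1 and 3 against 68.3 to 96.3 in the control dogs and 23.7 in CPP-Se replicate 2, and CD177 had at most 2.38 FPKM. Of 12 monocyte markers, 10 were tested and all 10 log2 fold changes were below 0, 7 without overlap, although that of CX3CR1 was only -0.03. Their sums were 422 to 522 in the control dogs and 274 to 308 in the CPP-Se dogs. No marker of these lists in the file was at 0 in every dog.

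Lymphocyte markers lay on the other side. Of 15 T cell markers tested, 14 had higher values and 9 did so without overlap, with a median of 0.74. Their summed FPKM nevertheless were 1111 to 1394 in the control dogs and 988 to 1100 in the CPP-Se dogs. CD4 made up most of that sum and was lower, with means of 1041 and 678 FPKM. The T cell sum thus follows CD4, which lay on the side of most neutrophil markers, and not the other T cell markers. Which cells the CD4 reads came from was not tested. All 9 NK and cytotoxic markers tested were higher, with sums of 16.1 to 35.5 and 44.5 to 76.0 FPKM, and 7 of 8 B cell markers were higher, with sums of 276 to 398 and 418 to 463. Of 15 red cell markers tested, 9 were higher and 6 lower, with a median of 0.53, and 3 (TMCC2, RHAG and ANK1) were higher and 1 (GYPC) lower without overlap. Their sums, mostly of HBM, were 6128 to 13261 and 6570 to 11389 FPKM and overlapped. Of 8 platelet markers tested, 3 were higher and 5 lower, with a median of -0.35 and overlapping sums of 847 to 1794 and 594 to 2101 FPKM. The members that were lower, such as PFKFB2, PGD and PGK1, therefore lay on the side of most neutrophil and monocyte markers and LDHB on that of most lymphocyte markers and of 9 of the 15 red cell markers. Under the common sum, the sums of the NK and cytotoxic list were still higher without overlap, at 35.2 to 68.5 TPM in the control dogs and 122 to 153 TPM in the CPP-Se dogs, and those of the other blood cell lists overlapped. CPP-Se replicate 2 was then inside the control range for neutrophils and monocytes. The part of cell composition in these differences was not tested.

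**Figure D5:**
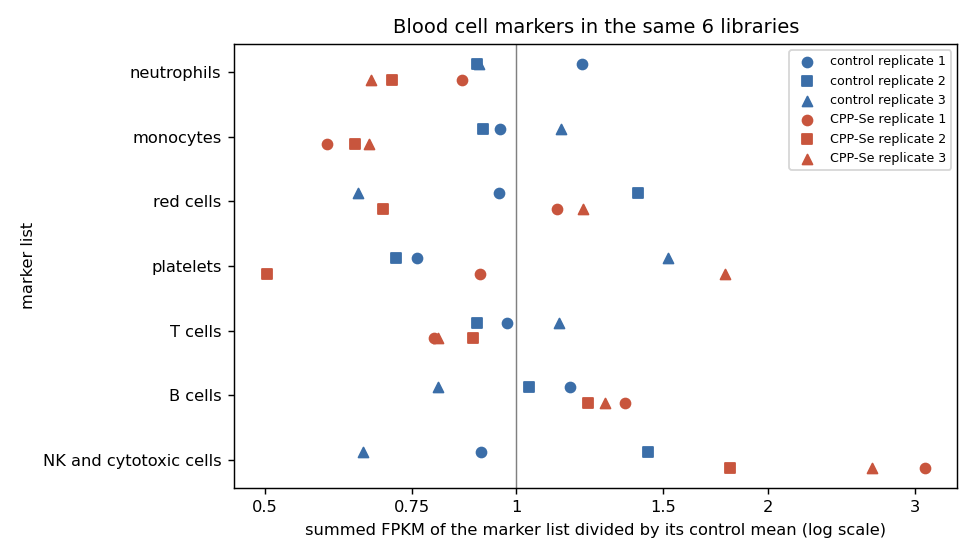
Summed FPKM of the markers of 7 blood cell types in each dog, divided by the mean of the control group, on a log scale. In the deposited FPKM, neutrophil, monocyte and T cell sums are below the control dogs in all 3 CPP-Se dogs, with CD4 making up most of the T cell sum. NK and cytotoxic and B cell sums are above, and red cell and platelet sums overlap. At a common sum per dog, only the NK and cytotoxic sums do not overlap.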

How the data were processed

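RNA-seq was made from whole blood of 3 control dogs and 3 CPP-Se dogs. The authors filtered reads with fastp, aligned them with HISAT2 to the dog genome of Ensembl release 100 and assembled them with StringTie. The submitters' processing notes name CASAVA 2.19, fastp 0.19.7, HISAT2 2.0.5 and featureCounts 1.5.0-p3. The deposited values are FPKM computed by the authors from gene length and mapped reads, with gene lengths beside them in bases. Which library size scaled the FPKM, the strand setting and the handling of multimapped reads are not given in the sources used here. The library size behind the FPKM was 0.933 times the reads on genes in control replicate 2. It was 0.944 and 0.882 times those reads in CPP-Se replicates 1 and 3, so it was not a plain total of them. How it was set was not tested.

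The name of each library gave its group. Nothing in the sources pairs dogs of the same number. FPKM multiplied by gene length gave whole multiples of 1 read in 100% of values above 0, within 0.01 reads up to 1000 reads and within 0.001% of the reads above, and these recovered reads served for depth and for limma-voom. Depth and 3 dogs per group set the precision. Libraries were amplified by PCR with no molecular identifiers. The p-values measure the spread between dogs.

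The main test was limma 3.58.1 in R 4.3.3 (lmFit, eBayes with trend) on log2(FPKM + 1), with a filter at a mean of 1 FPKM. The deposited unit is FPKM, so a count test was not the main test. Shares were tested with scipy 1.17.1 in Python 3.11.15, with Benjamini-Hochberg adjustment over the 13 shares, and shares of recovered reads were an alternative. Figures were drawn with matplotlib 3.10.9. Scripts were tested on simulated data. Values of every dog are given for members with an unadjusted p under 0.05 and for the highest member of each step. Genes of the further lists are named where groups do not overlap at a fold change of at least 1.5. SLC16A1, CD4, MMP9, CD177, CX3CR1, TMCC2, RHAG, ANK1, GYPC, HBM and the genes overlapping a member were named after their values were seen. The members, the 5 pathway lists and the 10 marker lists were chosen with earlier results of these data known. In all, 20 alternative settings were tried. Blood counts, serum measurements and metabolites were not analysed here.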

Additional observations from a re-analysis of the deposited data

How the results depend on the processing

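No member passed both thresholds in any of the 20 settings except 1, PFKFB2, under limma-voom with sample quality weights, a setting chosen after seeing the data (log2 fold change -1.49, adjusted p = 0.0407), in which 156 genes were called against 3 in the main comparison. Over all settings the log2 fold change of PFKFB2 was -1.55 to -1.16, with adjusted p from 0.0407 to 0.459 (limma), that of H6PD -1.09 to -0.72, of PGM2 -0.70 to -0.46, of PGD -0.62 to -0.38, of PGK1 -0.56 to -0.33 and of LDHB 0.40 to 0.73. Of all genes, 9.32% to 20.5% had an unadjusted p under 0.05 in these settings. At a common sum of FPKM, 1 member had an unadjusted p under 0.05, 1 was higher and 1 lower without overlap, the median of the members was 0.020, and TPI1 (0.020), GPI (0.019), PFKP (0.0056) and HK2 (0.10) turned positive. At a common sum without hemoglobin, 2 members were lower without overlap (8.33%, against 4.81% of all genes), and TPI1 (0.011), GPI (0.0096) and HK2 (0.095) turned. The median of ratios gave 4 members higher without overlap (16.7%, against 11%) and kept 7 lower (29.2%, against 12.1%). With it, 6 members (25%, against 15.9%) had an unadjusted p under 0.05 (limma). Quantile normalization gave 4 lower (16.7%, against 10.9%) and turned GAPDH (0.047). Array weights turned PGLS (-0.061) and ENO1 (-0.025), and limma-voom with sample quality weights turned HK2 (0.12). With the replicate number as a block, 3 members had an unadjusted p under 0.05 (12.5%, against 13.8% of all genes) and PFKFB2 an adjusted p of 0.250 (limma). The deviations of same-numbered dogs from their group means correlated at 0.02, -0.09 and -0.04. With a single pair of dogs per number, these values cannot show whether the dogs share more than a number. Leaving out 1 dog at a time gave 2 to 4 members higher and 7 to 11 lower without overlap, 4 to 6 with an unadjusted p under 0.05 (all genes 14.0% to 17.3%, 15.7% to 19.1% and 9.76% to 16.7%), and log2 fold changes of -0.13 to 0.55 for PFKM, -0.044 to 0.042 for ENO1, -0.0018 to 0.29 for PFKFB3, -0.024 to 0.47 for ALDOC, -0.29 to 0.12 for HK2, -0.23 to 0.18 for PGLS and -0.31 to 0.0020 for PFKP. Shares of reads gave 4 without overlap against 5. The differences in share, without 1 dog and in percentage points, ran from -2.79 to 4.47 for PFKM, -2.21 to 3.27 for PGM1, -4.58 to 0.74 for HK1 and -1.30 to 3.81 for HK3. The median of the members was -0.26 without CPP-Se replicate 1 and -0.027 without CPP-Se replicate 2. The cause of these changes was not tested. Depth limits TIGAR, FBP1, PGAM2 and PKLR, which had at most 23 reads in a dog.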

Other observations

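Some enzymes whose symbols name no row appear in the file as unnamed genes with a protein description. These rows were chosen after their values were seen. A gene described as the A chain of L-lactate dehydrogenase (ENSCAFG00000009211) had 51.7, 48.9 and 44.8 FPKM in the control group against 34.9, 34.3 and 38.9 in the CPP-Se group. All CPP-Se dogs lay below the control dogs (log2 fold change -0.42 ± 0.17 SE, adjusted p = 0.284 by limma), on the other side from the B chain gene LDHB, but at a common sum of FPKM per dog CPP-Se replicate 2 lay above all control dogs. A gene described as ribose-5-phosphate isomerase (ENSCAFG00000032762) had 5.30, 7.71 and 12.6 FPKM in the control group against 2.67, 3.76 and 3.45 in the CPP-Se group (log2 fold change -1.09 ± 0.29 SE, adjusted p = 0.181 by limma), which overlapped at a common sum. Another row with that description on a separate scaffold went the other way, on 0 to 36 reads per dog (log2 fold change 0.98 ± 0.53 SE, adjusted p = 0.416 by limma). It overlapped between the groups in the deposited FPKM. At a common sum it was higher without overlap, with 4.89, 3.53 and 0 TPM in the control group against 11.9, 4.97 and 5.76 in the CPP-Se group. The gene described as fructose-bisphosphate aldolase A was far higher than ALDOC, with 344, 343 and 380 FPKM in the control group against 319, 245 and 345 in the CPP-Se group, which overlapped. The row described as transaldolase with the highest mean reached 65.0 FPKM in control replicate 1 and 2.26 to 8.47 FPKM in the other 5 dogs, and a second transaldolase row reached 18.9 FPKM in CPP-Se replicate 2 and 1.72 to 2.92 FPKM in the other 5 dogs. Each of these rows was thus high in a different single dog.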
